A study of Mus musculus with 9 samples.

Results

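The 10 genes described here are the 4 inhibitor of DNA binding genes Id1, Id2, Id3 and Id4 and 6 components of the bone morphogenetic protein (BMP) pathway, Bmp4, Bmpr1a, Smad1, Smad6, Smad7 and Bambi. They were chosen by symbol from the 35896 genes to which the quantified transcripts could be assigned, and all 10 passed the filter on low counts that left 14648 genes for testing. RNA came from E14, an established mouse embryonic stem cell line, in 3 groups of 3 libraries, and the study asks what the Arp2/3 complex, a nucleator of branched actin networks, contributes when these cells differentiate. Control cells with LIF2i stayed in self-renewal medium, with the cytokine LIF, 1 µM of the MEK inhibitor PD0325901 and 1 µM of the glycogen synthase kinase inhibitor CHIR99021. Control cells without LIF2i were sampled 72 h after withdrawal of LIF and both inhibitors. CK666 cells were withdrawn for the same 72 h with 80 µM CK666, a compound that inhibits the Arp2/3 complex. All 3 groups grew in serum-containing medium on gelatin, and serum itself can carry BMP activity. CK666 came from a stock in DMSO, while the labels call the controls untreated, so drug and solvent cannot be told apart, and a single cell line was used.

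BMP ligands bind paired type I and type II receptor kinases, which phosphorylate SMAD1 and its close relatives. With SMAD4 these enter the nucleus and raise target genes, among them the ID genes and the inhibitory SMAD6 and SMAD7, which act back on the pathway. ID proteins are helix-loop-helix proteins without a DNA-binding region, and they hold E proteins in dimers that cannot bind DNA. In mouse embryonic stem cells grown with LIF, BMP4 from serum is known for sustaining self-renewal through ID genes.

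The start regions of Id2, Id3, Smad6 and Id4 are shown because Id2 and Smad6 were among the genes called for CK666, Id3 had the largest fitted change of the 10 genes on withdrawal, and Id4 moved the other way there. The RefSeq table used (GRCm38.p6) held a 300-base window for 7 of the 10 genes, the others being Id1, Smad7 and Bambi, with 250 bases before to 50 after the start, of which the first 270 bases are printed 5′ to 3′ on the gene's strand. Capitals mark GGCGCC, a GC-rich element that BMP-activated SMADs can bind, CAGAC or its complement GTCTG, the SMAD box, and GTCTAGAC, a palindromic SMAD element.
Id2, chr12:25096073-25096342, minus strand: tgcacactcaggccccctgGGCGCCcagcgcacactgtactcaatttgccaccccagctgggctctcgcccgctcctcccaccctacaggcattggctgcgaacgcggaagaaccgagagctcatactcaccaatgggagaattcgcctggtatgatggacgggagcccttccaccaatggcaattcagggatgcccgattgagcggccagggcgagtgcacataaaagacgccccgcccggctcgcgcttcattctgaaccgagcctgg
Id3, chr4:136143572-136143841, plus strand: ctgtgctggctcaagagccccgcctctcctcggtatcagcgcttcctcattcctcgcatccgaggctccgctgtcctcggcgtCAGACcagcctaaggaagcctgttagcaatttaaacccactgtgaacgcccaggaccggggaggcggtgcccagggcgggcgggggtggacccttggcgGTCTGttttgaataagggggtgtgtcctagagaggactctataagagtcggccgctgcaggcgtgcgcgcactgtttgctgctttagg
Smad6, chr9:64022040-64022309, minus strand: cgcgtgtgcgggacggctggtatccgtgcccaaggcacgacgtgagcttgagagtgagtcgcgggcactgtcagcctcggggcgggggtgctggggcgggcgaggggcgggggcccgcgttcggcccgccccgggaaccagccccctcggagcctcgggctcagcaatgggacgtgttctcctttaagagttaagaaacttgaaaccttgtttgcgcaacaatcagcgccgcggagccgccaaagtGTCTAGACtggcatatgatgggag
Id4, chr13:48260866-48261135, plus strand: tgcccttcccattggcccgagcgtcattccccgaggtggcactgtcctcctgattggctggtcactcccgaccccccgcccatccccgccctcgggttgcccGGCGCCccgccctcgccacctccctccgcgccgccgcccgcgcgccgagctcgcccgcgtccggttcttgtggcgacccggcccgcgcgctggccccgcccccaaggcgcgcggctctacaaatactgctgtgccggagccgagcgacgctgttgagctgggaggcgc

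Id2 and Id4 held GGCGCC, first base at -231 and -148 from the start, which 11.9% of the 32851 windows of this length held. Id3 held CAGAC at -167 and GTCTG at -68, against 49.6% of windows with either. Smad6 held GTCTAGAC at -4, across the start, a motif that 0.213% of windows held. This motif was added after the sequence had been seen, so its share cannot serve as a comparison. The E-box CANNTG, the letters that E proteins bind, occurred once in the windows of Id2 and of Smad6 and in neither that of Id3 nor that of Id4, against 72.3% of windows. Both strands were searched, and no match shown overlapped another. Of the other windows at hand, that of Bmpr1a held 1 GGCGCC, that of Bmp4 held 3 CANNTG, and that of Smad1 held none of these letters. A match describes the letters of the window and not a bound site.

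The libraries held 16894327 to 22550952 estimated counts. A principal component with 23.3% of the variance set the replicate 1 library of every group apart from replicates 2 and 3, and these libraries listed 15690 to 17605 genes above 0, against 18166 to 18749. The replicate number was a block in the edgeR fit because the study's design pairs the replicates, and results are also given without the replicate 1 libraries. Stem cell identity was checked with 8 naive markers, whose summed level was 3518 to 4740 TPM (transcript levels divided by length and scaled to a fixed sum) with LIF2i, 1475 to 1874 TPM without and 1689 to 1926 TPM with CK666. Most of the sum without LIF2i was Pou5f1, a core pluripotency factor, at 1199 to 1866 TPM in all 9 libraries. The other 7 markers summed to 1652 to 3250 TPM with LIF2i, 275 to 331 TPM without and 348 to 439 TPM with CK666, and the median log2 fold change of the 8 on withdrawal was -4.58.

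Withdrawal of LIF2i raised Id1, Id2 and Id3 and lowered Id4. Bambi and Bmpr1a rose, Bmp4 and Smad7 fell, and Smad1 and Smad6 did not pass the test. So 8 of the 10 genes were called, 5 raised and 3 lowered, at an edgeR adjusted p under 0.05, where 40.7% of all genes tested were called (21.1% raised, 19.7% lowered). With CK666 on top of withdrawal, 3 of the 10 genes were called against control cells without LIF2i. These were Id1, Id2 and Smad6, all raised, where 2.05% of all genes were called (1.15% raised). The 10 genes were chosen with earlier results of these data known, so these shares are descriptive only. Fitted without the replicate block (unblocked below), edgeR called 5 of the 10 genes for withdrawal, beside 24% of all genes, and 0 for CK666, beside 0% of all genes. Before adjustment, 4 of the 10 were under 0.05 in that CK666 fit, beside 1251 of the 14648 genes tested. With the block, DESeq2 called 4 for CK666, beside 7.76% of all genes, and limma-voom 3, beside 3.78%. Leaving the replicate 1 libraries out, edgeR called 8 for withdrawal, beside 44.8% of all genes, and 4 for CK666, beside 12.3%. Without the replicate 2 or the replicate 3 libraries it called 6 and 5 for withdrawal, beside 25.3% and 20.7% of all genes. For CK666 it then called 0 of the 10, beside 0.054% and 0% of all genes. In each of these fits 4 of the 10 had an unadjusted p under 0.05, beside 1302 of 14828 and 1360 of 14968 genes. There the edgeR adjusted p was 0.0809 and 0.0769 for Id1, 0.249 and 0.38 for Id2, and 0.2 and 0.285 for Smad6. The median log2 fold change of the 10 genes was 0.50 for withdrawal and 0.37 for CK666, beside 0.01 and 0.02 over all genes tested.

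**Figure D1:**
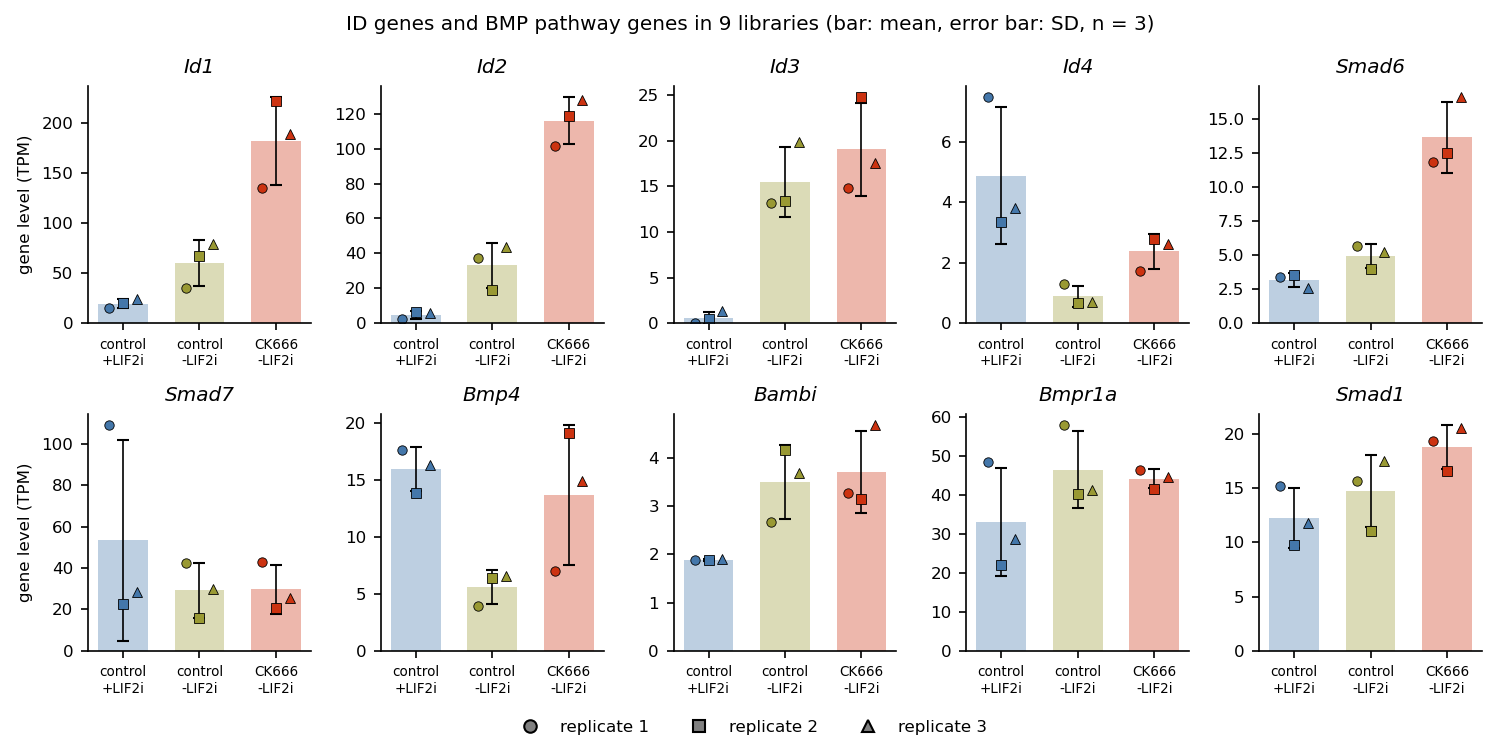
Level of each gene in TPM (y axes, each from 0) in the 9 libraries, by group (x axis); bars are means, error bars are SD (n = 3), and marker shapes are replicate numbers. The CK666 libraries of Id1, Id2 and Smad6 lie above all libraries of the other groups, and the replicate 1 library of Smad7 with LIF2i, at 109 TPM, stands above the other 8. How many of all genes separate in this way was not counted.

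Bmp4 encodes the ligand (chr14:46383520-46390669, minus strand, GRCm38). In replicate order its level was 17.7, 13.9 and 16.3 TPM with LIF2i, 3.91, 6.39 and 6.54 TPM without, and 7.05, 19.1 and 14.9 TPM with CK666. The libraries without LIF2i lie below all others, and those with CK666 reach from just above them to above the LIF2i libraries. In CPM, counts scaled to library size with TMM factors, on which the pairs of same-numbered libraries are compared, Bmp4 was at 8.60, 7.37 and 12.3 with LIF2i, 4.2, 5.19 and 4.70 without, and 4.17, 7.53 and 5.53 with CK666. On this scale the CK666 libraries reach from just below to above the range of control cells without LIF2i.

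The gap between the scales lies in 1 short transcript, annotated as a retained intron of 258 bases, which held 0 to 8.53 estimated counts in a library and 0% to 70.3% of the gene's TPM. The coding transcripts of Bmp4 stood at 7.20 ± 1.65 TPM (SD, n = 3) with LIF2i, 3.87 ± 0.25 TPM without and 4.61 ± 1.02 TPM with CK666. On counts, Bmp4 fell on withdrawal, with a log2 fold change of -1.0 (edgeR adjusted p 0.0204, SE 0.29, lower in 3 of 3 pairs of same-numbered libraries). The call was lost without the control library of replicate 3 with LIF2i (log2 fold change -0.78, edgeR adjusted p 0.119) and without that of replicate 1 (-1.03, 0.0548), replicate 2 (-1.03, 0.063) or replicate 3 (-0.90, 0.101) without LIF2i. For CK666 the log2 fold change was 0.27 (edgeR adjusted p 0.659, SE 0.29), and it was -0.01 without the CK666 library of replicate 2. Another annotated gene on the opposite strand covers 3.96% of the exonic bases of Bmp4.

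Bmpr1a encodes the type I BMP receptor that BMP4 uses in early embryonic cells (chr14:34410734-34503341, minus strand). Its level was 48.6, 22.0 and 28.7 TPM with LIF2i, 58.0, 40.3 and 41.3 TPM without, and 46.4, 41.6 and 44.6 TPM with CK666. Replicate 1 was the highest library of each group, and the groups overlap. Within pairs Bmpr1a rose on withdrawal in 3 of 3, with a log2 fold change of 0.48 (edgeR adjusted p 0.0148, SE 0.13, and 0.218 unblocked). That call was lost without the LIF2i library of replicate 2 (0.43, edgeR adjusted p 0.0589), the LIF2i library of replicate 3 (0.43, 0.0733), the replicate 1 library without LIF2i (0.48, 0.0504) or the replicate 2 library without LIF2i (0.46, 0.0591). For CK666 it was -0.08 (SE 0.13, edgeR adjusted p 0.767), and 0.03 without the CK666 library of replicate 1. An annotated gene on the opposite strand covers 4.57% of its exonic bases.

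Bambi encodes a receptor look-alike without a kinase region that dampens BMP and TGF-beta signals (chr18:3507923-3516404, plus strand). It stood at 1.88, 1.87 and 1.91 TPM with LIF2i, 2.67, 4.16 and 3.68 TPM without, and 3.27, 3.14 and 4.67 TPM with CK666. The libraries with LIF2i lay closer together than those of any other group and below all of them. Bambi rose on withdrawal by 0.84 on the log2 scale (SE 0.22, edgeR adjusted p 0.0138, and 0.076 unblocked). The call was lost without the replicate 2 library without LIF2i (0.66, edgeR adjusted p 0.0968) or the LIF2i library of replicate 3 (0.76, 0.0676). For CK666 the value was 0.10 (SE 0.22, edgeR adjusted p 0.838), with 2 of 3 pairs higher. It was slightly below 0 without the replicate 1 control library without LIF2i (-0.04) or the CK666 library of replicate 3 (-0.03).

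Smad1 encodes the receptor-activated SMAD that carries the signal (chr8:79338395-79399518, minus strand). Its level was 15.2, 9.79 and 11.8 TPM with LIF2i, 15.7, 11.1 and 17.5 TPM without, and 19.3, 16.6 and 20.5 TPM with CK666. Neighbouring groups overlap, and only the CK666 libraries lie wholly above those with LIF2i. The log2 fold change was 0.20 (edgeR adjusted p 0.276, SE 0.14) for withdrawal and 0.39 (SE 0.14, edgeR adjusted p 0.161) for CK666, higher in 3 of 3 pairs in each. In none of the 20 alternative fits did either pass.

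Smad6 encodes the inhibitory SMAD that acts mainly on BMP receptors (chr9:63953076-64022059, minus strand). It was at 3.37, 3.55 and 2.55 TPM with LIF2i, 5.65, 3.96 and 5.25 TPM without, and 11.8, 12.5 and 16.6 TPM with CK666. All CK666 libraries lie above all control libraries. The coding transcript Smad6-201 held 84.3% to 100.0% of the gene's TPM. Smad6 rose with CK666 by 1.55 on the log2 scale, or 2.93-fold (SE 0.23, edgeR adjusted p 0.0251, higher in 3 of 3 pairs). The value was 1.57 (edgeR adjusted p 0.26) without the block and 1.74 (0.00275) without the replicate 1 libraries. The call was lost without the replicate 2 library (1.40, edgeR adjusted p 0.153) or the replicate 3 library (1.52, 0.156) of control cells without LIF2i. It was also lost without the CK666 library of replicate 2 (1.62, edgeR adjusted p 0.156) or of replicate 3 (1.34, 0.105). On withdrawal the log2 fold change of Smad6 was 0.52 (edgeR adjusted p 0.106, SE 0.23), and it passed without the LIF2i library of replicate 2 (0.77, 0.0385).

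Smad7 encodes the inhibitory SMAD shared by the BMP and TGF-beta branches (chr18:75367529-75395935, plus strand). Its level was 109, 22.5 and 28.4 TPM with LIF2i, 42.3, 15.6 and 30.1 TPM without, and 43.1, 20.5 and 25.3 TPM with CK666. Replicate 1 was the highest library of each group, and the groups overlap. In TPM the replicate 3 library was not lower without LIF2i than with it. In CPM the levels were 198, 59.1 and 82.1 with LIF2i and 94.9, 39.9 and 64.6 without, lower in 3 of 3 pairs. On counts Smad7 fell on withdrawal by 0.67 on the log2 scale (SE 0.16, edgeR adjusted p 0.00789, 0.294 unblocked and 0.0566 with offsets for effective length). The value was -0.43 (edgeR adjusted p 0.0232) without the replicate 1 libraries, and the call was lost without the control library of replicate 1 without LIF2i (-0.54, 0.0601). For CK666 it was 0.02 (SE 0.16, edgeR adjusted p 0.955), at -0.09 without that same library and -0.07 without the CK666 library of replicate 2.

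Id1 was the most abundant of the ID genes in every library except 1 (chr2:152736251-152737410, plus strand). In self-renewing stem cells it is the classical BMP-responsive member. Its level was 15.0, 19.6 and 23.9 TPM with LIF2i, 34.8, 66.8 and 79.6 TPM without, and 136, 223 and 189 TPM with CK666. The 3 groups do not overlap, and each step holds in every replicate number. The coding transcript Id1-201 held 95.2% to 99.3% of this level.

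Id1 rose on withdrawal by 1.54 on the log2 scale, or 2.91-fold (SE 0.17, edgeR adjusted p 0.000159, and 0.0236 unblocked), a call that held in 20 of 20 alternatives. With CK666 it rose by a further 1.68, or 3.21-fold (SE 0.17, edgeR adjusted p 0.00743), higher in 3 of 3 pairs. The CK666 call held in 15 of 20 alternatives, with an edgeR adjusted p of 0.334 without the block and 0.00112 without the replicate 1 libraries, at 1.49 on the log2 scale. It was lost without the replicate 2 library of control cells without LIF2i (1.68, edgeR adjusted p 0.0555) or of CK666 cells (1.62, 0.0654).

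In the reported fit Id2 had the largest change for CK666 among the ID genes, an order that changed in some fits with libraries left out. It was low with LIF2i (chr12:25093799-25097140, minus strand). Its level was 2.10, 6.14 and 6.05 TPM with LIF2i, 37.2, 18.9 and 43.6 TPM without, and 102, 119 and 128 TPM with CK666. Again the groups do not overlap, and the CK666 libraries lay closer together, relative to their mean, than the controls. The replicate 1 library without LIF2i was the 1 library in which Id2 stood above Id1.

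Id2 rose on withdrawal by 2.71 on the log2 scale, or 6.56-fold (SE 0.41, edgeR adjusted p 0.00114), and the call held in 20 of 20 alternatives. With CK666 Id2 rose by 1.86, or 3.63-fold (SE 0.37, edgeR adjusted p 0.0456, higher in 3 of 3 pairs), close to the threshold. Only 8 of 20 alternatives kept that call, although the log2 value stayed between 1.44 and 2.23. The edgeR adjusted p was 0.328 without the block, 0.144 without an expression filter and 0.0541 with offsets for effective length. It was 0.0154, at 2.05 on the log2 scale, without the replicate 1 libraries. Among control libraries without LIF2i, leaving out replicate 1 gave 2.23 (edgeR adjusted p 0.0532), replicate 2 gave 1.44 (0.159) and replicate 3 gave 1.97 (0.211). Among CK666 libraries, leaving out replicate 1 gave 1.78 (edgeR adjusted p 0.102), replicate 2 gave 1.79 (0.221) and replicate 3 gave 2.01 (0.145). Without the replicate 3 library with LIF2i, Id2 stood at 1.86 (edgeR adjusted p 0.0842).

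Id3 went from near absence to a moderate level on withdrawal (chr4:136143497-136145755, plus strand). It was at 0, 0.42 and 1.28 TPM with LIF2i, 13.2, 13.4 and 19.9 TPM without, and 14.8, 24.8 and 17.6 TPM with CK666. The libraries with LIF2i lie far below the rest, while the other groups overlap. Behind the low values stood 0, 7 and 17 counts, and a count of 0 in the replicate 1 library allows up to 3 counts, or 0.139 CPM without the TMM factors (counting error only). Id3 rose on withdrawal by 4.73 on the log2 scale (SE 0.60, edgeR adjusted p 0.000325), with a range of 4.19 to 5.89 over the 20 alternatives, all of which kept the call. For CK666 the log2 fold change was 0.35 (edgeR adjusted p 0.726, SE 0.46), with 2 of 3 pairs higher. Whether this differs from the CK666 values of Id1 and Id2 was not tested.

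Id4 is the ID gene that moved the other way on withdrawal (chr13:48261228-48266026, plus strand). It was at 7.47, 3.33 and 3.82 TPM with LIF2i, 1.29, 0.65 and 0.71 TPM without, and 1.72, 2.79 and 2.62 TPM with CK666. The 3 groups do not overlap, with CK666 between the controls. Id4 fell on withdrawal by 2.46 on the log2 scale, to 0.18 of its level (SE 0.36, edgeR adjusted p 0.00063), and the 3 pairs lay between -2.42 and -2.41. All 20 alternatives kept this call.

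For CK666 Id4 had a log2 fold change of 1.53 (SE 0.36), with 3 of 3 pairs higher, and missed the threshold at an edgeR adjusted p of 0.0606. It passed in 6 of 20 alternatives, at 1.97 (edgeR adjusted p 0.00304) without the replicate 1 libraries and with an adjusted p of 0.00317 in DESeq2. DESeq2 made more false calls than edgeR (42 against 13) on counts simulated from the blocked edgeR fit, a setting that favours edgeR. With 1 library left out, Id4 passed without the LIF2i library of replicate 1 (1.46, edgeR adjusted p 0.0191) and without that with CK666 (1.96, 0.0205). Genes annotated on the opposite strand cover 4.44% of the exonic bases of Id4.

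**Figure D2:**
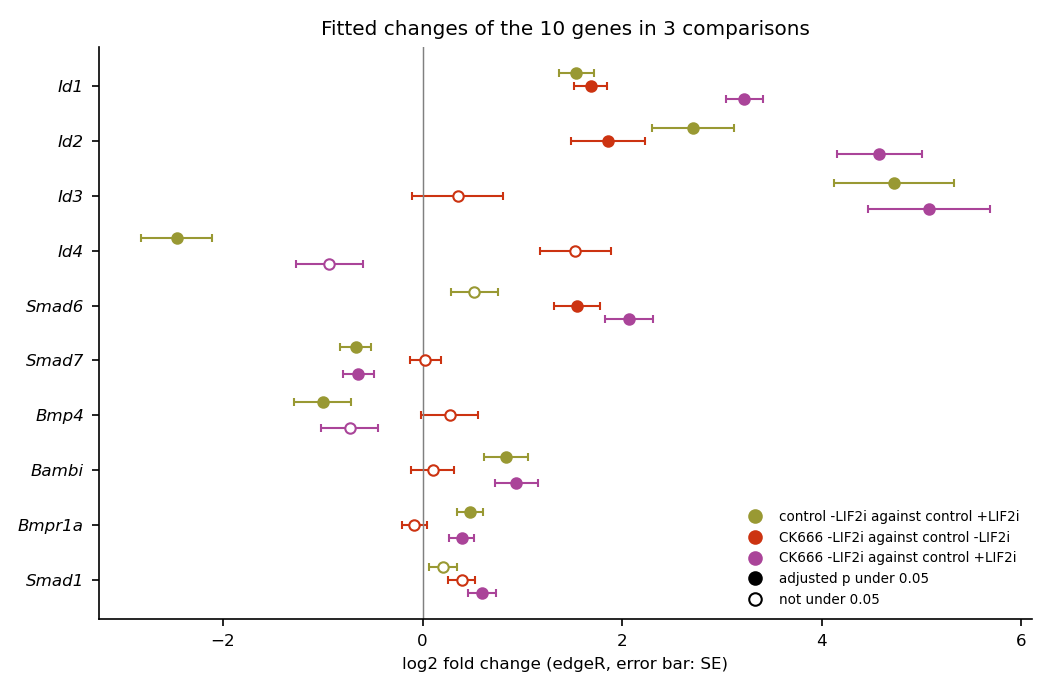
Fitted log2 fold change (x axis) of each gene (y axis) in the 3 comparisons, with SE as error bars and filled points for an edgeR adjusted p under 0.05. For CK666 against control cells without LIF2i the filled points are those of Id1 (1.68), Id2 (1.86) and Smad6 (1.55).

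**Figure D3:**
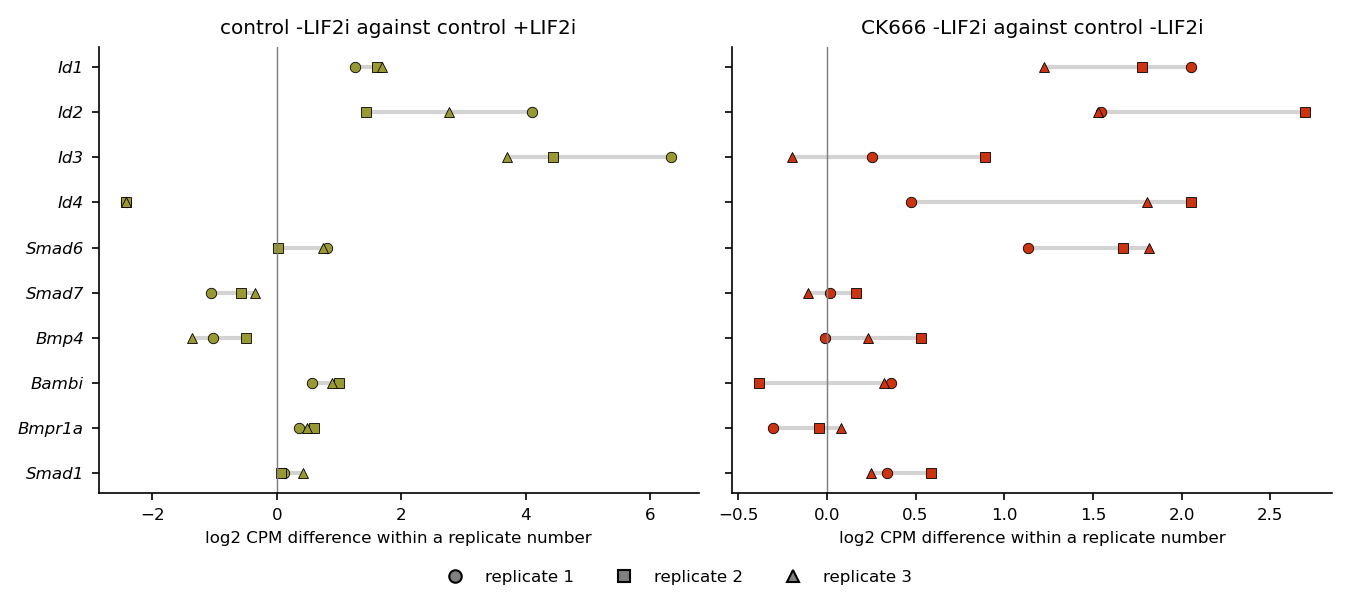
Difference in log2 CPM (x axis) between same-numbered libraries for each gene (y axis), for withdrawal (left) and CK666 (right); marker shapes are replicate numbers and grey lines their range. For CK666, all 3 pairs of Id1, Id2, Id4, Smad6 and Smad1 are above 0, while those of Id3, Smad7, Bmp4, Bambi and Bmpr1a fall on both sides. How many of all genes have 3 pairs that agree was not counted.

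Together, the 4 ID genes summed to 24.6, 29.5 and 35.1 TPM with LIF2i, 86.5, 99.8 and 144 TPM without, and 254, 369 and 337 TPM with CK666. Their E-protein partners Tcf3, Tcf4 and Tcf12 summed to 186, 117 and 123 TPM, then 169, 132 and 120 TPM, then 176, 101 and 119 TPM. The E-protein sums overlap between all groups, whereas the ID sums do not. The ratio of ID to E-protein transcripts was 0.132, 0.253 and 0.285 with LIF2i, 0.511, 0.754 and 1.2 without, and 1.44, 3.65 and 2.84 with CK666. These are ratios of transcript levels, not of proteins. Id1 made up 61.0% to 68.2% of the ID sum with LIF2i, 40.3% to 67.0% without and 53.4% to 60.4% with CK666. The share of Id2 was 8.56% to 20.8%, 18.9% to 43.0% and 32.1% to 40.1% in the same order. In bulk RNA, more cells that express a gene and more RNA per cell cannot be told apart.

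CK666 cells were also set against control cells with LIF2i, a comparison that shares its libraries with both others. Of the 10 genes 7 rose and 1 fell, where 36.9% of all genes were called (19.8% raised, 17.1% lowered), and 4 were called without the block, beside 20.2%. Id1 rose by 3.23 (SE 0.18, edgeR adjusted p 6.2e-06), Id2 by 4.58 (SE 0.43, edgeR adjusted p 0.000105), Id3 by 5.08 (SE 0.61, edgeR adjusted p 0.000271) and Smad6 by 2.07 (SE 0.24, edgeR adjusted p 0.000195) on the log2 scale. These 4 calls held in 20 of 20 alternatives. Smad1 rose by 0.59 (edgeR adjusted p 0.00921), Bambi by 0.94 (0.00917) and Bmpr1a by 0.39 (0.0371), and Smad7 fell by 0.64 (0.0108).

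Each of these 4 smaller changes kept its direction but had an adjusted p above 0.05 in some fits with 1 library left out. Smad1 missed the threshold without the LIF2i library of replicate 3 (0.52, edgeR adjusted p 0.0565) or the CK666 library of replicate 2 (0.53, 0.0566). Bambi did so without the LIF2i library of replicate 3 (0.86, edgeR adjusted p 0.0522) or with CK666 (0.82, 0.0594), and Smad7 without the CK666 library of replicate 1 (-0.53, 0.0627). Bmpr1a kept its call in 9 of 20 alternatives. It was lost without replicate 2 (0.33, edgeR adjusted p 0.139) or replicate 3 (0.34, 0.153) with LIF2i, and without replicate 2 (0.35, 0.144) or replicate 3 (0.30, 0.176) with CK666. Leaving out a control library without LIF2i lost it too, at 0.0517 for replicate 1, 0.0554 for replicate 2 and 0.0632 for replicate 3. The remaining 2 genes did not pass in the reported fit. Id4 was at -0.93 (SE 0.34, edgeR adjusted p 0.056) and Bmp4 at -0.73 (SE 0.29, edgeR adjusted p 0.0739). Each passed when 1 library was left out, CK666 replicate 2 for Id4 (-1.25, edgeR adjusted p 0.0479) and replicate 2 with LIF2i for Bmp4 (-1.02, 0.0297). With all libraries, Id4 passed without an expression filter (-0.91, edgeR adjusted p 0.0488), in DESeq2 (-0.94, DESeq2 adjusted p 0.0297) and in limma-voom (-1.05, limma-voom adjusted p 0.021).

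The rest of the pathway was read from a list of 67 genes in 6 roles, of which 66 were found and 50 were tested. Withdrawal changed 26 of the 50, 18 raised and 8 lowered, or 52.0% beside the 40.7% of all genes. CK666 raised 3 of the 50 and lowered none, or 6.0% beside 2.05%. The list and its roles were drawn up with earlier results of these data known, so their shares are descriptive only. The median log2 fold change of the 50 was 0.41 for withdrawal and 0.18 for CK666, against 0.01 and 0.02 over all genes tested. Without the block, edgeR called 15 for withdrawal, beside 24% of all genes, and 0 for CK666, beside 0%. Of the 50, 6 then had an unadjusted p under 0.05 for CK666, beside 1251 of the 14648 genes tested. DESeq2 with the block called 7 for CK666, beside 7.76% of all genes.

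**Figure D4:**
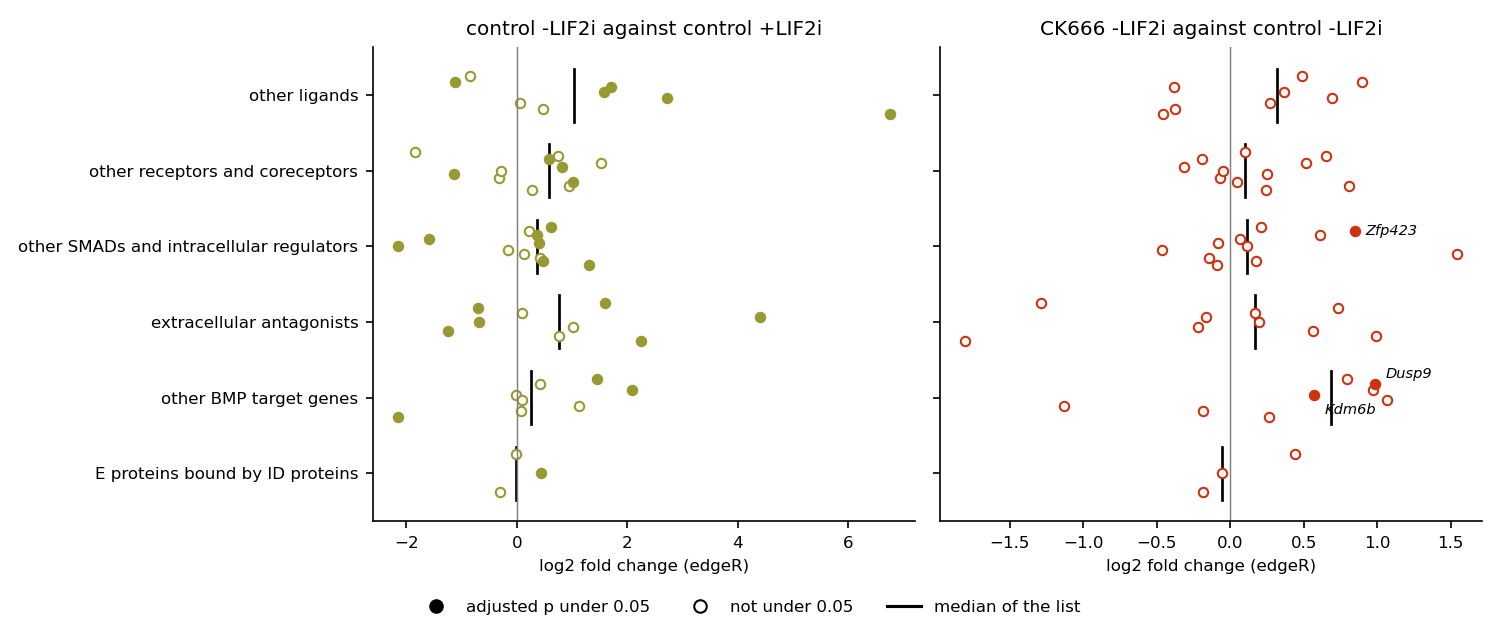
Fitted log2 fold change (x axes) of the 50 tested pathway genes by role (y axis), for withdrawal (left) and CK666 (right); filled points have an edgeR adjusted p under 0.05 and black lines are list medians. For CK666, the filled points are Zfp423 (0.85), Dusp9 (0.99) and Kdm6b (0.57).

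Of the other ligands and ligand-processing genes, 8 of 14 were tested, and withdrawal raised 4 and lowered 1, with 0 called for CK666. On withdrawal this is 62.5%, beside 40.7% of all genes. Bmp8b, a ligand related to BMP7, rose from 0.41 ± 0.18 to 2.70 ± 1.22 TPM (SD, n = 3), by 2.72 on the log2 scale (SE 0.55, edgeR adjusted p 0.00386), in 20 of 20 alternatives. Genes on the opposite strand cover 12.2% of its exonic bases. Bmp6, a ligand, rose by 1.71 (SE 0.46, edgeR adjusted p 0.0158), a call lost without the replicate 1 library without LIF2i (1.43, 0.0591), with length offsets (1.44, 0.0828) and with only the 2 groups compared (1.75, 0.0647). Bmp1, a protease that cleaves chordin and is no ligand, rose by 1.57 on counts (SE 0.42, edgeR adjusted p 0.0143), although its TPM values overlapped. With offsets for effective length the value was 0.84 (edgeR adjusted p 0.391). It also missed the threshold without the block (1.39, edgeR adjusted p 0.0946) and without the replicate 3 library without LIF2i (1.24, 0.0649). Bmp7, a ligand, fell from 9.36 ± 2.00 to 4.61 ± 0.83 TPM, by 1.12 on the log2 scale (SE 0.35, edgeR adjusted p 0.031). The call for Bmp7 was lost without the block (-1.06, edgeR adjusted p 0.13) and without an expression filter (-1.10, 0.0649). It was lost without replicate 1 (-0.66, edgeR adjusted p 0.155) or replicate 2 (-1.12, 0.0869) with LIF2i. It was also lost without replicate 1 (-1.21, 0.0787), replicate 2 (-0.95, 0.143) or replicate 3 (-1.20, 0.0759) without LIF2i.

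Among 11 tested receptors and coreceptors, withdrawal raised 3 and lowered 1, and 0 were called for CK666. The 36.4% of receptors called on withdrawal are near the 40.7% of all genes. Acvr2b, a type II receptor, rose from 18.2 ± 3.69 to 33.2 ± 4.48 TPM (SD, n = 3), by 0.82 on the log2 scale (SE 0.12, edgeR adjusted p 0.00081). Eng, the coreceptor endoglin, fell from 26.6 ± 14.1 to 12.3 ± 1.44 TPM, by 1.14 (SE 0.21, edgeR adjusted p 0.00212). Both calls held in 20 of 20 alternatives. Rgmb, a coreceptor of the repulsive guidance family, rose by 1.01 (SE 0.24, edgeR adjusted p 0.00791), lost without the block (1.08, 0.1) and without all replicate 3 libraries (0.78, 0.0985). Bmpr2, the BMP type II receptor, rose by 0.58 (SE 0.16, edgeR adjusted p 0.0179). Its call was lost without the block (0.55, edgeR adjusted p 0.0987), without replicate 2 (0.54, edgeR adjusted p 0.0808) or replicate 3 (0.45, 0.109) without LIF2i, or replicate 3 with LIF2i (0.47, 0.101).

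The 11 SMADs and intracellular regulators were all tested, with 5 raised and 2 lowered on withdrawal and 1 raised with CK666, or 63.6% and 9.09% beside 40.7% and 2.05% of all genes. Skil, which encodes the SMAD corepressor SnoN, rose by 1.31 on the log2 scale (SE 0.12, edgeR adjusted p 5.9e-05). Tob1, a repressor of SMAD-driven transcription, fell by 1.59 (SE 0.19, edgeR adjusted p 0.0002), and each of the 2 held in 20 of 20 alternatives. Its relative Tob2 rose by 0.62 (SE 0.14, edgeR adjusted p 0.0071) and Ppm1a, a phosphatase that acts on SMADs, by 0.48 (SE 0.11, edgeR adjusted p 0.00597), both lost without the block (0.11 and 0.122). Zfp423, a zinc-finger cofactor of BMP SMADs, was at 14.7, 5.68 and 10.04 TPM without LIF2i and at 23.2, 18.3 and 12.1 TPM with CK666. The groups overlap, but each pair was higher with CK666. It rose by 0.85 (SE 0.17, edgeR adjusted p 0.0399, and 0.62 unblocked).

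Of 8 tested BMP target genes beside the ID genes and the inhibitory SMADs, withdrawal raised 2 and lowered 1, and CK666 raised 2. These are 37.5%, near the 40.7% of all genes, and 25.0%, beside 2.05%. Dusp9, a phosphatase of ERK kinases that BMP signalling is known to raise in mouse embryonic stem cells, was at 69.4, 28.4 and 20.4 TPM with LIF2i, 131, 90.1 and 73.9 TPM without, and 312, 192 and 109 TPM with CK666. It is lowest with LIF2i, and the groups without LIF2i overlap. Dusp9 rose on withdrawal by 1.45 (SE 0.17, edgeR adjusted p 0.000189, held in 20 of 20 alternatives) and with CK666 by 0.99 (SE 0.17, edgeR adjusted p 0.0301, and 0.475 unblocked). Kdm6b, a histone demethylase, was at 28.8, 15.4 and 19.6 TPM without LIF2i and 46.3, 20.2 and 26.3 TPM with CK666, with overlap between groups. It rose with CK666 by 0.57 (SE 0.11, edgeR adjusted p 0.0396, and 0.673 unblocked).

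The 3 CK666 calls in the list of other pathway genes depended on most libraries. Zfp423, Dusp9 and Kdm6b passed in 9, 11 and 8 of 20 alternatives, with 3 of 3 pairs higher for each. Each was lost when any 1 of the 6 libraries without LIF2i was left out. Their log2 values in these 6 fits were 0.71 to 0.98 for Zfp423, 0.78 to 1.2 for Dusp9 and 0.47 to 0.63 for Kdm6b, with edgeR adjusted p-values of 0.0602 to 0.218, 0.0533 to 0.203 and 0.0801 to 0.204. Zfp423 and Kdm6b were also lost without replicate 3 with LIF2i (0.0722 and 0.0668), and Kdm6b without replicate 2 with LIF2i (0.0545). With length offsets Zfp423 (0.87, edgeR adjusted p 0.147) and Kdm6b (0.52, 0.0886) missed the threshold too.

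On withdrawal, Msx1, a homeobox factor, rose by 2.09 on the log2 scale (SE 0.55, edgeR adjusted p 0.0142), lost without replicate 3 with LIF2i (2.12, 0.0568) or without (1.90, 0.0865). Tfap2a, a transcription factor of the ectoderm, fell by 2.16 (SE 0.72, edgeR adjusted p 0.0377) and genes on the opposite strand cover 14.6% of its exonic bases. Its call held in 10 of 20 alternatives, and was lost without the block (0.0951) and with length offsets (-1.85, 0.0505). Leaving out a library with LIF2i gave -2.0 (edgeR adjusted p 0.0656), -1.95 (0.0939) and -2.61 (0.059) for replicates 1, 2 and 3. Leaving out replicate 1 or 2 without LIF2i gave -1.51 (0.171) and -1.65 (0.153), and leaving out replicate 2 with CK666 gave -2.20 (0.0504). Of the E proteins, Tcf12 rose by 0.44 on counts (SE 0.12, edgeR adjusted p 0.0164), and Tcf3 and Tcf4 were not called. With offsets for effective length Tcf12 was at 0.17 (edgeR adjusted p 0.565). Its call was also lost without the block (0.0784) and without replicate 2 with LIF2i (0.42, 0.0553) or without (0.38, 0.0882).

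Extracellular antagonists, which bind BMPs outside the cell, had 9 of 17 members tested, with 3 raised and 3 lowered on withdrawal and 0 called for CK666. The share called on withdrawal was 66.7%, beside 40.7% of all genes. Twsg1, which modulates chordin, fell from 45.6 ± 12.5 to 25.3 ± 1.68 TPM (SD, n = 3), by 0.69 on the log2 scale (SE 0.11, edgeR adjusted p 0.00114). Fstl1, a follistatin-like protein, fell by 0.71 (SE 0.10, edgeR adjusted p 0.000682), and both held in 20 of 20 alternatives. Crim1, a transmembrane protein that can tether BMPs, rose by 1.60 (SE 0.20, edgeR adjusted p 0.000269), in 19 of 20, with 0.91 (0.0601) under length offsets. Chrd, the antagonist chordin, fell by 1.24 (SE 0.33, edgeR adjusted p 0.0153, and 0.379 unblocked; limma-voom gave 0.0533). That call was lost without replicate 1 (-1.02, edgeR adjusted p 0.0576) or replicate 2 (-1.23, 0.0696) without LIF2i, or replicate 3 with LIF2i (-1.30, 0.0539). Nbl1, the antagonist DAN, rose by 2.25 from a low level (0.45 ± 0.36 to 2.62 ± 1.35 TPM, SE 0.70, edgeR adjusted p 0.0295). It was lost without any 1 of 5 control libraries, replicate 2 (2.54, edgeR adjusted p 0.0519) and replicate 3 (1.51, 0.0848) with LIF2i and replicate 1 (2.46, 0.0624), replicate 2 (2.26, 0.0899) and replicate 3 (2.10, 0.104) without.

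Markers of cell states, listed with earlier results of these data known, moved with the same groups. On withdrawal 7 of 8 naive markers fell, beside 19.7% of all genes, and 5 of 5 formative markers rose, beside 21.1%, the formative ones from 47.0 to 72.7 TPM summed up to 428 to 1182 TPM, and the sum with CK666 was 242 to 785 TPM. With CK666 the naive marker Tbx3 rose from 1.47 to 6.36 TPM up to 14.3 to 34.0 TPM (log2 fold change 3.31, SE 0.52, edgeR adjusted p 0.0314). The formative marker Fgf5 fell from 26.5 to 40.5 TPM down to 1.72 to 9.36 TPM (log2 fold change -3.16, SE 0.43, edgeR adjusted p 0.021), and the neural progenitor marker Nes fell by 1.24 on the log2 scale (SE 0.22, edgeR adjusted p 0.0307). Nes was the 1 gene called of 6 in its list, whose median log2 fold change for CK666 was 0.87, with Zic1 at 1.64, Pax6 at 1.47, Sox1 at 1.27, Sox10 at 0.46 and Tubb3 at -0.26. Unblocked, none of the 3 passed (edgeR adjusted p 0.189, 0.26 and 0.272), and they passed in 9, 12 and 11 of 20 alternatives. The other 11 tested genes of these 2 pluripotency lists were not called for CK666, so 1 of 8 naive and 1 of 5 formative markers were called, beside 2.05% of all genes.

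Lineage markers are given beside the 40.7% of all genes called on withdrawal (21.1% raised, 19.7% lowered), and for CK666 none of their tested genes was called except Nes. Of the trophoblast list 3 of 5 tested genes rose and 1 fell on withdrawal (80.0% called), with sums of 65.6 to 103 TPM with LIF2i, 177 to 389 TPM without and 120 to 380 TPM with CK666, while its defining genes Cdx2 and Elf5 never exceeded 0.73 TPM. Of the fibroblast list 4 of 5 tested genes rose (80.0%), from sums of 4.77 to 7.32 TPM up to 24.5 to 31.2 TPM, with 14.6 to 24.4 TPM under CK666, and Lum was listed at 0 in 8 of 9 libraries and Postn in 6. Endoderm sums were 5.38 to 9.07, 10.04 to 31.1 and 12.5 to 24.0 TPM, with 1 of 6 tested genes raised on withdrawal (16.7%). Streak and mesoderm sums were 5.24 to 11.1, 5.95 to 10.5 and 2.90 to 5.15 TPM, with 1 of 4 raised (25.0%). Neural sums were 44.8 to 200, 46.8 to 104 and 32.3 to 86.8 TPM, with 2 of 6 raised and 2 lowered (66.7%). The part of these cell states in the values of the 10 genes was not tested.

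The genes whose pattern over the 9 libraries was most like that of Id1, among 9629 genes compared, were Pam, Rimklb, Cacnb3, Rab3ip and Bbx, with Pearson r of log2 CPM of 0.98, 0.98, 0.98, 0.97 and 0.97. Pam, an enzyme that amidates peptides, went from 7.92 ± 0.25 TPM with LIF2i to 12.7 ± 1.02 TPM without and 20.7 ± 1.87 TPM with CK666 (SD, n = 3). Among the 10 genes Id2 was nearest to Id1 (r = 0.94, rank 17), followed by Smad6 (0.89, rank 78), Bambi (0.85), Smad1 (0.83), Bmpr1a (0.16) and Smad7 (-0.63). Id3, Id4 and Bmp4 were below the level set for this comparison. The libraries form 3 groups that share replicate numbers, so these values describe an order of groups and carry no p.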

How the data were processed

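Poly-A RNA of E14 cells was sequenced in 9 libraries. Per the file headers, the authors deposited estimated counts (expected counts) and TPM per transcript for each library; the submitters' processing notes name FastQC, cutadapt 1.8.1, kallisto and sleuth, and the builds mm10 and GRCh38, without roles. The deposited effective length served only for length offsets. The transcript release and a strand setting are not given in the sources used here, so genes that overlap on opposite strands may share reads.

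Transcripts were assigned to genes with GENCODE M21 (GRCm38): 116640 of 119414 matched, and the other 2774 held 0.895% to 1.08% of the counts. Estimated counts were summed per gene and rounded, and TPM was summed per gene. Reads that fit several transcripts are divided by estimation, which affects short transcripts most.

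The test was edgeR 4.0.16 under R 4.3.3 (robust quasi-likelihood test, TMM, edgeR's expression filter). All 9 libraries were in 1 fit, with replicate number as a block and 4 residual degrees of freedom. Benjamini-Hochberg adjustment ran over 14648 genes, with a threshold of 0.05. Each SE is the absolute log2 fold change divided by the square root of the test's F statistic. Pairs follow the study's design text and the numbered titles; deviations from group means correlated with a median r of 0.41 between same-numbered libraries (0.30 to 0.65, all 9 pairs above 0.1) and -0.37 between others (-0.53 to 0.29). The negative values all involve replicate 1 (-0.53 to -0.35). Between replicates 2 and 3 of different groups r was 0.21 to 0.29, beside 0.30 to 0.51 for same-numbered libraries of these replicates. Deviations within a group of 3 sum to 0 for each gene, so positive values for same-numbered libraries bring negative ones with them. The contrast of the medians is therefore partly set by the centring. The 20 alternatives were the fit without the block, DESeq2 size factors, no filter or 1 CPM in 3 libraries, DESeq2 1.42.0, limma-voom (limma 3.58.1), effective length offsets, only the 2 groups compared, and leaving out each replicate number and each library. Counts for CK666 were simulated from the blocked edgeR fit, with its block effects and dispersions (14648 genes, 100 changed per size). On them the blocked edgeR fit recovered 51% of log2 changes of 1 and 84% of changes of 2 and made 13 false calls. The unblocked fit recovered 4% and 49% and made 0. DESeq2 recovered 58% and 86% and made 42, and limma-voom recovered 51% and 83% and made 13. With the block built in, this simulation favours the blocked edgeR fit and cannot say whether the data need a block.

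The 10 genes, the pathway and marker lists and the motifs were chosen with earlier results of these data known. Named beside the 10 genes are pathway genes called for CK666, the 3 raised and 3 lowered genes per role with the largest change on withdrawal and a mean of at least 1 TPM in a group, and the 5 genes most like Id1 (mean log2 CPM of at least 3, prior count 2); Pou5f1 and the markers called for CK666 were added. Replicates are called biological by the study, and no source says whether they came from separate thaws or days; counting errors cover reads only.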

Additional observations from a re-analysis of the deposited data

How the results depend on the processing

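Id1, Id2, Id3 and Id4 on withdrawal, and Id1, Id2, Id3 and Smad6 for CK666 against self-renewal, kept their direction and call in all 20 alternatives. Without the replicate block the counts of called genes fell to 3509, 0 and 2966 over all genes for withdrawal, CK666 and CK666 against self-renewal. They fell to 5, 0 and 4 of the 10 genes, and to 15, 0 and 13 of the 50 pathway genes. For CK666 in that fit, 4 of the 10 genes had an unadjusted p under 0.05, beside 1251 of 14648 over all genes. The CK666 count over all genes, 300 in the reported fit, was 565 without an expression filter, 1136 in DESeq2, 553 in limma-voom, 149 with length offsets and 1367 with only the 2 groups compared. The CK666 count of pathway genes, 3 in the reported fit, was 6 without an expression filter, 7 in DESeq2, 1 with length offsets and 10 with only the 2 groups compared. Among the 10 genes it was 2 with length offsets and 4 in DESeq2. The cause of these shifts was not tested. Leaving out 1 replicate number or 1 library gave 3099 to 6588 calls over all genes for withdrawal, 0 to 1811 for CK666 and 2413 to 6129 for CK666 against self-renewal. It gave 5 to 8, 0 to 4 and 5 to 8 of the 10 genes, and 11 to 28, 0 to 10 and 11 to 32 pathway genes. A fit that leaves a group with fewer libraries assumes that these vary like the others.

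Values that changed sign lay near 0. For CK666, leaving out 1 replicate number or 1 library gave log2 fold changes of -0.094 to 0.14 for Smad7, -0.012 to 0.40 for Bmp4, -0.039 to 0.32 for Bambi and -0.17 to 0.033 for Bmpr1a. Zfp423 on withdrawal was -0.0024 with length offsets. The order of the group means of each of the 10 genes was the same in CPM as in TPM. Depth limits Id3 with LIF2i (0 to 17 counts) and the retained-intron transcript of Bmp4 (at most 8.53 counts).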
